A study of Homo sapiens with 6 samples.

Results

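The genes described here belong to heme synthesis and heme breakdown. They are 7 of the enzymes that build heme (ALAS1, ALAD, UROS, UROD, CPOX, PPOX and FECH) and the 2 heme oxygenases HMOX1 and HMOX2. The 7 are not the whole synthesis pathway. They were chosen by gene name and are 9 of the 62754 rows of the deposited table, 1 row per gene. All 9 were among the 17951 genes tested. All libraries come from HPNE-hTERT, a human pancreatic line labelled as ductal epithelium and non-malignant, immortalized with telomerase. The FOLFIRINOX group had received 5-fluorouracil at 10 µM, SN-38 (the active form of irinotecan) at 25 nM and oxaliplatin at 5 µM for 4 days, a treatment meant to make the cells senescent. The vehicle group had received DMSO and was collected on day 4. Each group had 3 libraries, named P14, P15 and P19 in the table, and values of single libraries are given in that order below. No label states whether the libraries of a group were grown as separate cultures. The p-values below thus reflect the spread between libraries, which may be technical. The main test, limma, also draws the variance of each gene towards a trend over all genes. Its p-values therefore do not rest on the spread of that gene alone. The series concerns mitochondrial iron and ferroptosis, an iron-dependent form of cell death, and heme synthesis and breakdown are routes by which cellular iron is used and released.

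Heme is an iron-holding porphyrin that cytochromes, catalase and many oxygenases need. In non-erythroid cells ALAS1, in the mitochondrial matrix, joins glycine to succinyl-CoA and sets the pace of the pathway, and heme represses it. Cytosolic enzymes then assemble and trim the porphyrin ring, and the last steps, CPOX, PPOX and FECH, return to the mitochondrion, where FECH inserts the iron. HMOX1 and HMOX2 open the ring again and release iron, carbon monoxide and biliverdin. HMOX1 is the inducible form, repressed by BACH1 and activated by NRF2, and HMOX2 is expressed constitutively.

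With the libraries treated as unpaired, CPOX was the 1 of the 9 genes that passed the test, and it was higher after FOLFIRINOX. None was called lower in this fit, in which 11.4% of all genes tested were called higher and 12.2% lower. With the P number as a block CPOX was again called higher. In that fit ALAS1 and HMOX1 were called lower (limma adjusted p = 0.0394 and 0.0398). Over all genes tested the block fit called 22.3% higher and 21.8% lower, so these counts are near the shares over all genes. Values are reads per gene divided by the authors' size factor of the library (normalized reads), and a gene was called where limma on log2(value + 1) gave an adjusted p under 0.05 over all genes tested. ALAS1, the pathway's entry enzyme, did not pass the unpaired test. The 250 bases before the start of CPOX and of ALAS1 are given, 5′ to 3′ on the gene's strand, from RefSeq on GRCh38.p14. They lie at chr3:98593612-98593861 on the minus strand for CPOX and at chr3:52197833-52198082 on the plus strand for ALAS1. Capitals mark the GC box GGGCGG, the core that SP1 family factors bind, on either strand.
CPOX: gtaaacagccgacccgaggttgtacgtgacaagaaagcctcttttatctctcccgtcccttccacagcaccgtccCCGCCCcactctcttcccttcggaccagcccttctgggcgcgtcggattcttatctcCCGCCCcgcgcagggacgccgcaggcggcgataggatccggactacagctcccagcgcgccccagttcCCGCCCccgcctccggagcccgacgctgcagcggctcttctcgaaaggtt
ALAS1: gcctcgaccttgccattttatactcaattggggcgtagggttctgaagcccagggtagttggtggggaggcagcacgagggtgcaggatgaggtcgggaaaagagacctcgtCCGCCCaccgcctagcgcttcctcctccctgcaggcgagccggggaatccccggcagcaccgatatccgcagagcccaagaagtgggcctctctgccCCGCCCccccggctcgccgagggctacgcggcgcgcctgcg
CPOX holds 3 GC boxes, at positions -175 to -170, -118 to -113 and -50 to -45 before the RefSeq start, and ALAS1 holds 2, at -138 to -133 and -41 to -36. GENCODE 29 starts CPOX further upstream, within this window, so the -50 to -45 match lies inside the gene as GENCODE places it. Promoters were matched for 7 of the 9 genes (UROS and HMOX1 had no entry), and 6 of these held GGGCGG, as did 42.6% of 35116 promoter windows of this length. CCAAT was found in ALAD, ALAS1, HMOX2 and PPOX and in 32% of all windows, TATAAA in ALAS1 and in 10.7%, and CACGTG in HMOX2 and in 6.34%. The antioxidant response element core TGANNNNGC was found in FECH, PPOX and UROD and in 35.2% of all windows. TGACGT and the core of the NRF1 site were found in none of the 7 windows and in 7.10% and 5.07% of all windows. Both strands were searched, and among these matches 2 of CCAAT in ALAD overlapped each other. GENCODE 29 also starts UROD, FECH, HMOX2, ALAD and PPOX within their windows. All TGANNNNGC matches of UROD and FECH lie inside the gene so placed. So do the GC boxes of UROD and HMOX2, the CACGTG of HMOX2 and the ALAD GC box nearest its start. For ALAD, HMOX2 and PPOX 2 windows were listed, and the one nearest the GENCODE start was used. A match is a match of letters only.

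The libraries held 83981154 to 91992824 reads assigned to genes after FOLFIRINOX and 86435436 to 97762802 in vehicle. MKI67, the Ki-67 proliferation antigen, averaged 30.2 ± 6.65 normalized reads after FOLFIRINOX and 13874 ± 3569 in vehicle, and CDKN1A, the cell cycle inhibitor p21, averaged 203806 ± 27900.2 and 22156 ± 4997 (SD, n = 3 each). Of 10 ductal markers 6 passed the filter on low values, among them KRT18 and KRT8, and the defining markers KRT19, EPCAM and CFTR were among those that did not. The summed level of all 10 was 8966 to 9959 after FOLFIRINOX and 11979 to 14440 in vehicle. All 8 mesenchymal markers passed and summed to 2402238 to 2908056 after FOLFIRINOX and 3320927 to 4947223 in vehicle. Most of this sum was FN1, with means of 1879127 and 2772919, and the sums are not per length. After FOLFIRINOX THY1 and NES averaged 4187 and 5846, below the ductal KRT18 at 7148, and the rest of the 8 averaged above it. VIM, vimentin, one of the 8, averaged 276784 ± 15670 after FOLFIRINOX and 522537 ± 54996 in vehicle (SD, n = 3 each). Its log2 difference was -0.91 ± 0.15 (limma adjusted p = 0.0016). The part of these marker differences in the results below was not tested. Of 12 erythroid markers none passed, and the 5 globin genes listed had no read in any library, so globin RNA was not detected beside the heme genes described here. Of 10 macrophage and leukocyte markers 3 passed, and all 10 together summed to 74.7 to 129.8 after FOLFIRINOX and 84.9 to 156 in vehicle. These sums hide opposite differences at low levels. CSF1R averaged 14.2 after FOLFIRINOX and 89.0 in vehicle, the only one of the 10 with a lower mean. CD14 averaged 23.3 and 6.19. Mitochondrial ribosomal RNA took 2.74% of reads in P14, 1.18% in P15 and 1.23% in P19 after FOLFIRINOX, and 0.864%, 0.563% and 0.552% in vehicle. P14 had the highest share in both groups, so results that rest on it are also given without both P14 libraries. In bulk RNA, fewer cells that express a gene and less RNA per cell cannot be told apart.

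**Figure D1:**
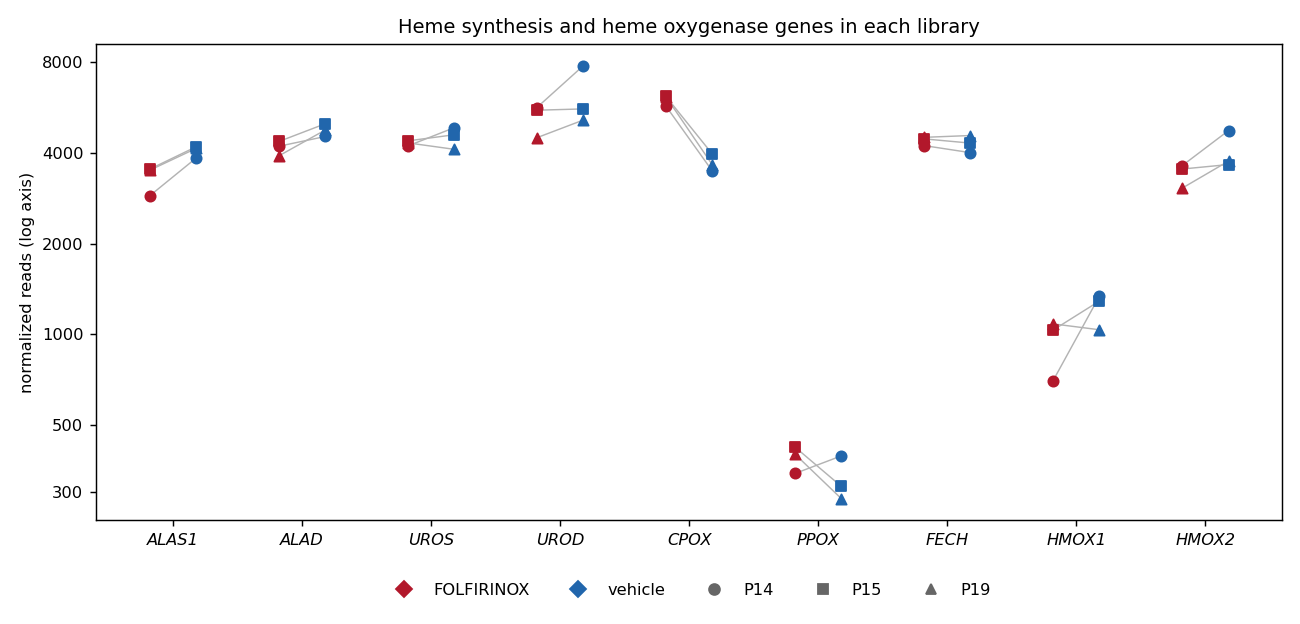
Normalized reads (log axis) of the 9 genes in each library, FOLFIRINOX in red on the left and vehicle in blue on the right of each gene, with a grey line joining libraries of the same P number. The 3 CPOX points after FOLFIRINOX, 5710 to 6148, sit above the 3 vehicle points, 3477 to 3959.

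CPOX, coproporphyrinogen oxidase, which makes protoporphyrinogen from its precursor in the mitochondrial intermembrane space, had 5710, 6148 and 6137 normalized reads after FOLFIRINOX, against 3477, 3959 and 3647 in vehicle. Every FOLFIRINOX library was above every vehicle library, and the spread within each group was small. The log2 difference was 0.70 ± 0.15 (SE, 95% interval 0.38 to 1.02, limma adjusted p = 0.0061), a 1.62-fold higher level. Within P numbers the differences were 0.72, 0.63 and 0.75 on the log2 scale for P14, P15 and P19. Without both P14 libraries the difference was 0.69 (adjusted p = 0.0324). CPOX was called under all 20 alternative settings, with log2 differences from 0.66 to 0.81 and adjusted p from 1.1e-06 to 0.0354. In the authors' deposited table it had a log2 fold change of 0.70 with a standard error of 0.17 and an adjusted p of 5.8e-04. Among all genes tested 11.4% were called higher in the same fit, so 1 call among 9 genes is near the share found over all genes. The gene lies on chromosome 3, 98579446 to 98593723 on the minus strand (GRCh38, GENCODE 29, as for the places below).

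ALAS1 (chromosome 3, 52198086 to 52214327, plus strand), the entry enzyme of the pathway, had 2882, 3531 and 3502 normalized reads after FOLFIRINOX, against 3847, 4190 and 4139 in vehicle. All FOLFIRINOX values lay below all vehicle values, with P14 lowest in both groups. The log2 difference was -0.30 ± 0.16 (95% interval -0.65 to 0.04, limma adjusted p = 0.192) and it did not pass. ALAS1 was lower within each P number, by 0.42, 0.25 and 0.24 on the log2 scale. With the P number as a block (replicate block) the same difference had an SE of 0.12 and an adjusted p of 0.0394, the 1 of 20 alternatives that called ALAS1 (adjusted p 0.0394 to 0.469 over all). Without both P14 libraries it was -0.24 (adjusted p = 0.377). ALAS2, the erythroid isoenzyme, had no read in 5 libraries and a normalized value of 1.87 in FOLFIRINOX P19, and was not tested.

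ALAD (chromosome 9, 113386317 to 113401333, minus strand), which joins pairs of aminolevulinate into porphobilinogen, had 4204, 4360 and 3907 normalized reads after FOLFIRINOX, against 4530, 4993 and 4761 in vehicle. The groups did not overlap, yet the distance between the highest FOLFIRINOX and the lowest vehicle library was small, and the log2 difference of -0.20 ± 0.15 did not pass (95% interval -0.52 to 0.13, limma adjusted p = 0.366). UROS (chromosome 10, 125784980 to 125823285, minus strand), uroporphyrinogen III synthase, which closes the ring, had 4215, 4381 and 4314 after FOLFIRINOX, against 4847, 4591 and 4107 in vehicle. The FOLFIRINOX values fell inside the vehicle range, and the log2 difference was -0.07 ± 0.15 (95% interval -0.39 to 0.26, adjusted p = 0.780). The sign of the UROS estimate changed under common-total scaling, with GC trends removed and without both P14 libraries.

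UROD (chromosome 1, 45012147 to 45015575, plus strand), uroporphyrinogen decarboxylase, which trims the side chains of the ring, had 5652, 5536 and 4488 normalized reads after FOLFIRINOX, against 7781, 5592 and 5137 in vehicle. The groups overlapped, and vehicle P14 was far above the other vehicle libraries, so UROD had the widest spread of the 9 genes in vehicle (6170 ± 1414, SD, n = 3). Its log2 difference was -0.22 ± 0.19 (95% interval -0.64 to 0.20, limma adjusted p = 0.430). Without both P14 libraries the difference was -0.10.

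PPOX (chromosome 1, 161166410 to 161178013, plus strand), protoporphyrinogen oxidase, which makes protoporphyrin, had the lowest values, with 346, 423 and 401 normalized reads after FOLFIRINOX, against 395, 313 and 285 in vehicle. PPOX was lower after FOLFIRINOX in P14 and higher in P15 and P19, with log2 differences of -0.19, 0.43 and 0.49. The pooled log2 difference was 0.24 ± 0.20 (95% interval -0.20 to 0.69, limma adjusted p = 0.420), and 0.46 (adjusted p = 0.207) without both P14 libraries. A fit with both the replicate block and a GC correction gave 0.41 (adjusted p = 0.0215), the 1 of 20 alternatives that called it (adjusted p 0.0215 to 0.67 over all). PPOX rests on 295 to 430 reads per library, the fewest of the 9 genes. On the opposite strand B4GALT3 overlaps 24.3% of the exonic bases of PPOX and averaged 2443 ± 419 normalized reads after FOLFIRINOX and 2894 ± 425 in vehicle. Since no source used here gives the strand setting of the counting, reads of the overlap may come from either gene and cannot be told apart.

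FECH (chromosome 18, 57548283 to 57586772, minus strand), ferrochelatase, which inserts iron into protoporphyrin and itself holds an iron-sulfur cluster, had 4226, 4448 and 4500 normalized reads after FOLFIRINOX, against 4004, 4307 and 4564 in vehicle. The values of the groups were interleaved. The log2 difference of 0.03 ± 0.15 (95% interval -0.29 to 0.36, limma adjusted p = 0.887) sets no direction. Its sign changed under TMM scaling, in edgeR, with GC trends removed and without vehicle P14. The processed pseudogene FECHP1 had no read, so no reads of FECH were assigned to it.

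HMOX1 (chromosome 22, 35380361 to 35394214, plus strand), the inducible oxygenase, had 702, 1033 and 1083 normalized reads after FOLFIRINOX, against 1340, 1290 and 1036 in vehicle. FOLFIRINOX P14 was the lowest library, and the P15 and P19 values after FOLFIRINOX lay close to the lowest vehicle value. The log2 difference was -0.40 ± 0.21 (95% interval -0.86 to 0.06, limma adjusted p = 0.199). With the replicate block it had an adjusted p of 0.0398 (0.0398 to 0.725 over the 20 alternatives, of which this 1 called it), although the 3 P numbers differed: HMOX1 was lower by 0.93 in P14 and by 0.32 in P15, and higher by 0.06 in P19. The SE of the block fit, 0.16, draws on the variances of all genes and not on these 3 differences alone. Without both P14 libraries the difference was -0.13 (adjusted p = 0.725).

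HMOX2 (chromosome 16, 4474690 to 4510347, plus strand), the constitutive oxygenase, had 3623, 3533 and 3052 normalized reads after FOLFIRINOX, against 4739, 3656 and 3753 in vehicle. The groups did not overlap, but FOLFIRINOX P14 lay close to vehicle P15. The log2 difference was -0.25 ± 0.17 (95% interval -0.61 to 0.12, limma adjusted p = 0.320). NMRAL1, on the opposite strand, overlaps 6.01% of the exonic bases of HMOX2 and averaged 390 ± 30.6 normalized reads after FOLFIRINOX and 578 ± 53.4 in vehicle. Per kilobase of merged exons, HMOX1 made up 23.4%, 31.6% and 35.9% of both oxygenases together after FOLFIRINOX, against 30.8%, 35.8% and 30.3% in vehicle. The means were 30.3% ± 6.34 and 32.3% ± 3.00 (SD, n = 3 each). The difference of -2.03 percentage points was smaller than the spread (exact two-sided permutation p = 0.90, where the smallest possible is 0.10).

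**Figure D2:**
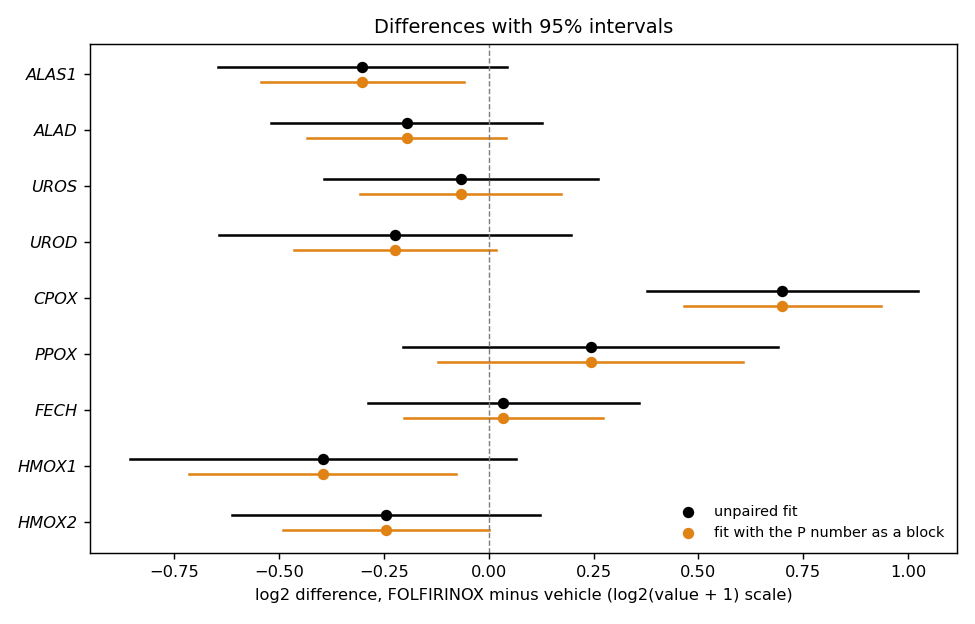
Log2 difference, FOLFIRINOX minus vehicle, of each gene with its 95% interval, in the unpaired fit (black) and with the P number as a block (orange). The CPOX interval, 0.38 to 1.02, is the one of 9 that excludes 0 in the unpaired fit, and with the block those of ALAS1 and HMOX1 exclude 0 as well.

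Across the 9 genes, 3 estimates were positive and 6 negative (with UROS turning positive under common-total scaling and FECH negative under TMM scaling). The median log2 difference was -0.20, against 0.02 over all 17951 genes tested, whose middle 50% lay between -0.37 and 0.44. In the unpaired limma fit 1 gene was called higher and 0 lower, where 11.4% of all genes tested were called higher and 12.2% lower. At an unadjusted p under 0.05 limma gave 0 lower. On the recovered reads edgeR called CPOX higher and 0 members lower (1 at an unadjusted p under 0.05), where 10.1% and 13.3% of all genes were called higher and lower. DESeq2 also called CPOX higher and 0 members lower (0 at an unadjusted p under 0.05), where 9.5% and 9.89% were called. With the replicate block CPOX was called higher and ALAS1 and HMOX1 lower, where 22.3% and 21.8% of all genes were called. Groups did not overlap for CPOX, with FOLFIRINOX above, where 19.9% of all genes tested did the same. They did not overlap for ALAS1, ALAD and HMOX2, with FOLFIRINOX below, where 19.6% of all genes did the same. Within all 3 P numbers ALAS1, ALAD, UROD and HMOX2 were lower, as were 31.5% of all genes tested. CPOX was higher within all 3, as were 33.7% of all genes. With 9 genes such counts are small, and nothing particular to these genes is read from them.

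Per kilobase of merged exons, CPOX and UROD were the highest of the 9 genes after FOLFIRINOX, at 1856 ± 77.2 and 1797 ± 220.4 normalized reads per kilobase (SD, n = 3), with overlapping ranges. ALAS1 followed at 1303 ± 144. FECH, HMOX2 and ALAD came next at 982, 897 and 834, where the ranges of FECH and HMOX2 and those of HMOX2 and ALAD overlapped. UROS and HMOX1 were at 451 and 391, also with overlapping ranges, and PPOX was lowest at 84.6. In vehicle UROD was highest at 2122 ± 486, then ALAS1 at 1600.3 ± 73.0, with no overlap between these 2 or with the next. CPOX was at 1143 ± 75.6 and overlapped HMOX2 at 1068, and the range of HMOX2 in turn overlapped that of FECH. FECH and ALAD, at 959 and 956, and HMOX1 and UROS, at 508 and 474, could not be ordered by their ranges. PPOX was lowest again at 71.9.

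The order depends on the length used, since the transcripts made by these cells were not measured. With the longest annotated transcript as the length UROD was highest in both groups, at 2828 after FOLFIRINOX and 3339 in vehicle normalized reads per kilobase, and CPOX came second after FOLFIRINOX (2126). In vehicle CPOX, at 1310, could not be ordered against UROS, since their ranges overlapped. UROS, whose merged exons are far longer than its longest transcript (9532 and 3447 bases), moved to 1248 and 1310 per kilobase. PPOX was lowest and HMOX1 next to lowest in both groups with this length. Of the summed level per kilobase of merged exons of the 7 synthesis genes described here, CPOX made up 24.7%, 25.0% and 26.5% after FOLFIRINOX, against 14%, 16.7% and 16.1% in vehicle. ALAS1 made up 17.8% ± 1.75 and 21.9% ± 1.87 (SD, n = 3 each). With the longest transcript as the length CPOX made up 21.0% ± 1.02 and 12.7% ± 1.34, and ALAS1 13.4% ± 1.44 and 16.2% ± 1.65. These are parts of 1 sum, so a higher share of 1 gene leaves less for the others.

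**Figure D3:**
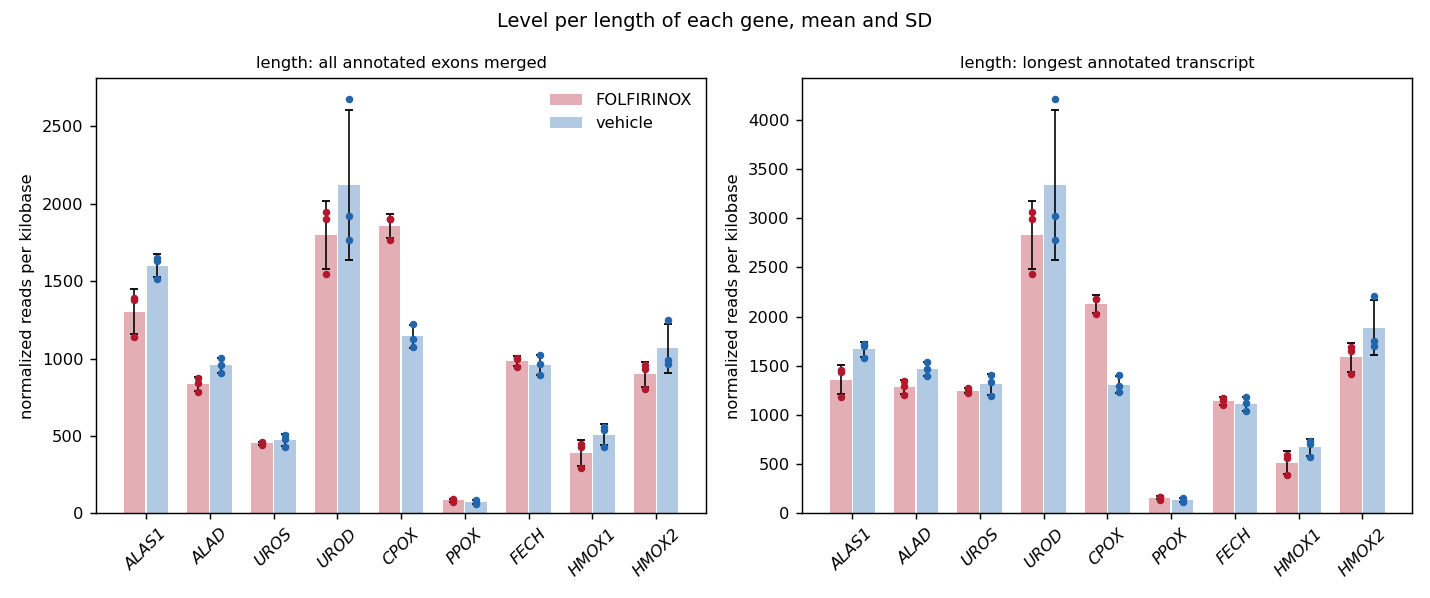
Normalized reads per kilobase of each gene with merged exons (left) and the longest annotated transcript (right) as the length. Bars are means, error bars SD, and points the 3 libraries of each group, FOLFIRINOX left of vehicle. CPOX stands at 1856 after FOLFIRINOX and 1143 in vehicle per kilobase of merged exons.

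The genes most like CPOX in pattern over the 6 libraries, among 12487 genes with a mean of 100 or more, were TUFT1, MFAP5 and NINJ2-AS1, with Pearson correlations of log2 values of 0.9993, 0.9990 and 0.9989. The hundredth gene in that order still had 0.985. For HMOX1 they were TRIM62, DNAJB12 and ANXA11, at 0.987, 0.987 and 0.984. All points share the 2 treatments and the 6 libraries, so such values describe these libraries only.

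Other genes of heme metabolism were taken from 6 lists written from general knowledge, of which 92 of 98 genes were tested. Over all genes tested, 11.4% were called higher and 12.2% lower in the unpaired limma fit. With the replicate block the shares were 22.3% and 21.8%. No test of a list as a set was made. Of 14 other tested genes of heme synthesis, which include its mitochondrial transporters and partner proteins, 0 were called higher and 2 lower in the limma fit (median log2 difference -0.11). At an unadjusted p under 0.05 limma gave 2 higher, PGRMC2 and CLPX, and edgeR and DESeq2 called 0 higher. With the replicate block 2 were higher and 5 lower. The count lower was 1 without FOLFIRINOX P14 or P19 or vehicle P14 or P15 and 0 without both P14 libraries, and 2 were higher without vehicle P19. LONP1, a protease of the mitochondrial matrix that degrades ALAS1 when heme is plentiful, averaged 2083 ± 372 after FOLFIRINOX and 3312 ± 623 in vehicle (SD, n = 3 each, log2 difference -0.67 ± 0.20, limma adjusted p = 0.0327). Its call was lost without FOLFIRINOX P14 or P19 or vehicle P14 or P15 or both P14 libraries, and 12 of 20 alternatives called it (adjusted p 9.5e-05 to 0.211).

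Of 13 genes of heme breakdown and transport 1 was called higher and 1 lower (median -0.12), and 4 and 2 with the block. The shares over all genes tested were 11.4% and 12.2%, and 22.3% and 21.8% with the block. HPX, hemopexin, a secreted heme-binding protein, had 62.8, 60.0 and 61.6 normalized reads after FOLFIRINOX, against 6.15, 18 and 2.80 in vehicle (limma adjusted p = 0.0034). HPX is the 1 gene of this list called higher. Without its FOLFIRINOX libraries it would not have met the filter on low values, so this p-value is not read as support. ABCG2, an exporter of porphyrins and drugs, averaged 114 ± 20.7 after FOLFIRINOX and 206 ± 19.7 in vehicle (-0.86 ± 0.23, adjusted p = 0.0207), the 1 gene of this list called lower. It was not called without FOLFIRINOX P14 or P19, vehicle P15 or P19, or both P14 libraries (adjusted p 2.6e-04 to 0.0804 over the 20 alternatives). The biliverdin reductases, which act after the oxygenases, did not pass. BLVRA averaged 4478 ± 1055 normalized reads after FOLFIRINOX and 4647 ± 724 in vehicle. BLVRA differed by -0.07 ± 0.20 and BLVRB by -0.34 ± 0.18 (adjusted p = 0.838 and 0.194, and 0.0481 for BLVRB with the block). The sign of BLVRA changed under common-total scaling, with GC trends removed and without FOLFIRINOX P15 or P19 or vehicle P14.

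Of 17 regulators of ALAS1 and HMOX1 5 were called higher and 1 lower (median 0.15), and the count higher was 1 without FOLFIRINOX P15 and 3 without FOLFIRINOX P14 or P19, vehicle P14 or P15, or both P14 libraries. Without vehicle P19 2 were lower, and with the block 6 were higher and 2 lower. Among all genes tested 11.4% were called higher and 12.2% lower, and 22.3% and 21.8% with the block. FOXO1, a transcription factor that activates ALAS1 in liver, averaged 175 ± 53.3 after FOLFIRINOX and 77.7 ± 1.74 in vehicle (1.12 ± 0.27, limma adjusted p = 0.0115, and 3.1e-04 to 0.0539 over the alternatives, the highest without FOLFIRINOX P15, where the call was lost). The nuclear receptor NR1D1 differed by 0.82 ± 0.26 (adjusted p = 0.0422), and vehicle P14 was the 1 single library whose removal kept its call (adjusted p 6.1e-06 to 0.136 over the 20 alternatives, of which 12 called it). ATF4, a stress transcription factor, differed by -0.75 ± 0.14 (adjusted p = 0.0029). Outside the naming rule, MAFK, a small MAF partner of NRF2 and BACH1, differed by 0.79 ± 0.17 (adjusted p = 0.0066), and PPARGC1A and NR1D2 were also called higher (adjusted p = 0.021 and 0.0458, called in 14 of 19 and 12 of 20 alternatives). PPARGC1A had 41.1, 35.4 and 22.4 normalized reads after FOLFIRINOX, against 8.20, 12.7 and 7.48 in vehicle. It would not have met the filter on low values without its FOLFIRINOX libraries, so its p-value is not read as support. The PPARGC1A call was lost without FOLFIRINOX P14 or P15, vehicle P14 or both P14 libraries. That of NR1D2 was lost without FOLFIRINOX P15 or P19, vehicle P14 or P15, or both P14 libraries. BACH1 averaged 4717 ± 1309 normalized reads after FOLFIRINOX and 4243 ± 1215 in vehicle. BACH1 differed by 0.15 ± 0.24 and NFE2L2, which encodes NRF2, by 0.34 ± 0.18 (adjusted p = 0.679 and 0.201, and 0.0128 for NFE2L2 with the block). The sign of BACH1 changed with GC trends removed and without FOLFIRINOX P19.

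Beside HMOX1, 1 of 17 NRF2 and BACH1 target genes was called higher and 8 lower (median -0.58), and 2 and 10 with the block. For this list and those that follow, the shares over all genes tested were 11.4% and 12.2%, and 22.3% and 21.8% with the block. SLC40A1, the iron exporter, differed by 2.02 ± 0.17, and PIR and NQO1, a quinone reductase, by -2.18 ± 0.21 and -1.37 ± 0.19 (limma adjusted p = 1.1e-05, 3.6e-05 and 4.1e-04). Of 11 genes of the metabolism of glycine and succinyl-CoA, the substrates of ALAS1, 0 were called higher and 6 lower (median -0.62), and 2 and 8 with the block. At an unadjusted p under 0.05 limma gave 1 higher, SUCLA2, and edgeR called 0 and DESeq2 1. The 6 were SHMT1 and SHMT2, which interconvert serine and glycine, GLDC, which cleaves glycine, ALDH1L2, a mitochondrial folate enzyme, DLST, a subunit of the complex that makes succinyl-CoA, and SUCLG2, a subunit of a succinyl-CoA ligase. They thus include genes that use these substrates or act beside them. The SUCLG2 call was lost without FOLFIRINOX P15 (limma adjusted p = 0.0755) and in limma without trend (0.0643). That of DLST was lost without FOLFIRINOX P19 (0.0566) and without both P14 libraries (0.0584). SHMT1 averaged 134 ± 54.7 normalized reads after FOLFIRINOX and 1334 ± 217 in vehicle. SHMT1 and GLDC differed by -3.37 ± 0.28 and -2.79 ± 0.32 (adjusted p = 1.0e-05 and 1.1e-04). In this list 1 gene was called higher without FOLFIRINOX P15 or without vehicle P19. Of 20 heme a and heme c enzymes and hemoproteins 1 was called higher and 3 lower (median -0.06), and 4 and 5 with the block. CYP1B1 differed by 1.69 ± 0.17, the prostaglandin synthase PTGS1 by -2.16 ± 0.16 and the cytochrome b5 gene CYB5B by -0.89 ± 0.16 (adjusted p = 3.9e-05, 4.6e-06 and 0.0024).

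**Figure D4:**
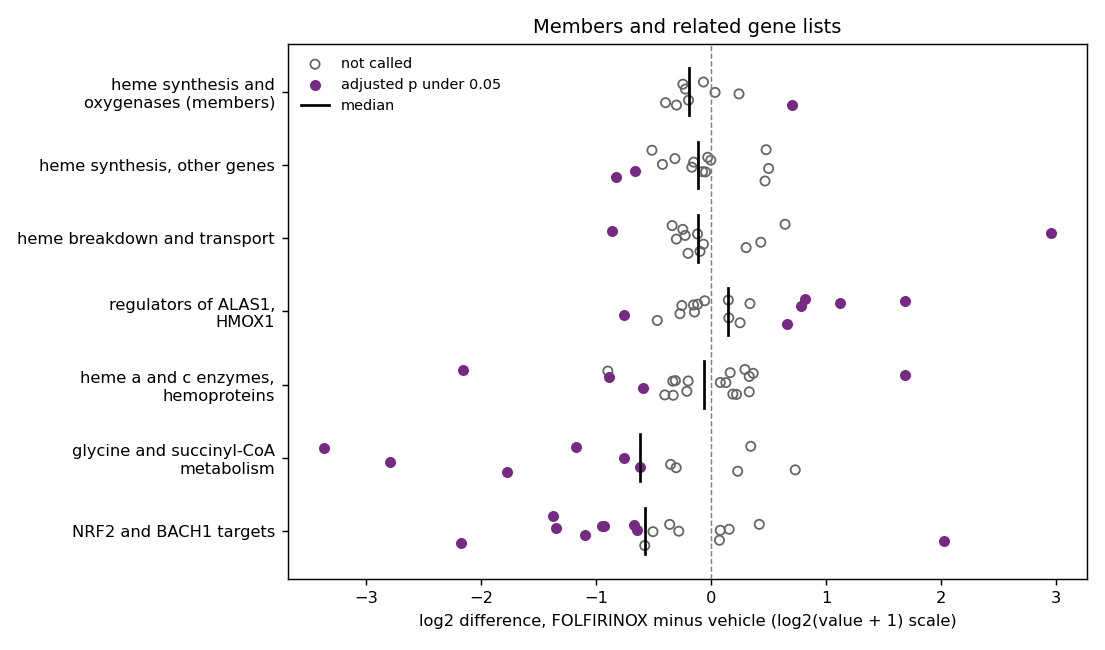
Log2 difference, FOLFIRINOX minus vehicle, of each tested gene of the 9 members and of the 6 related lists (filled: adjusted p under 0.05, open: not called), with the median of each list as a bar. The members lie between -0.40 and 0.70, and the medians of the glycine and succinyl-CoA list and of the NRF2 and BACH1 targets are -0.62 and -0.58.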

How the data were processed

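Messenger RNA was enriched (NEB) before KAPA library preparation, per the labels' protocols. The submitters' processing notes name GRCh38 and the tools DESeq2, featureCounts 2.0.6, STAR 2.7.11b and FastQC 0.12.1. No source used here gives the annotation release, the strand setting or the DESeq2 design. The deposited signal is reads per gene divided by a size factor per library. The deposited table also gives the authors' log2 fold changes, p-values and a score (log2 fold change over its standard error). All values (100%) were whole multiples, within 0.001, of the value of 1 read, so reads were recovered. Labels hold no P number, and each column was mapped to its group alone. Deviations from group means over 17951 genes correlated at 0.257, 0.282 and 0.288 for equal P numbers (-0.26 to -0.03 otherwise, threshold 0.1), so P numbers were read as pairs from the column names. The replicate block is this P number.

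The test was limma 3.58.1 with trend on log2(value + 1), for genes at 10 or more in at least 3 libraries, Benjamini-Hochberg adjusted at 0.05 over all genes. On this scale folds of low genes are understated. Standard errors had a median of 0.226 and are moderated, so each gene's variance is drawn towards a trend over genes of similar level. The step was also run on simulated reads with a single dispersion and no pairing, which does not vouch for the calls made here. Lengths, coordinates and GC content came from GENCODE 29. Alternatives (edgeR 4.0.16 and DESeq2 1.42.0 on recovered reads among them) are given below. Members, lists, motifs and naming rules were chosen with earlier results of these data known. All members were named, with, for each list, up to 2 called genes per direction whose mean reached 50, 5 fixed genes, and the 3 genes most like CPOX and HMOX1. Other genes in the text were named after their values were seen. 1 gene that the rule names is not reported here. Of recovered counts below 50, 72.3% to 74.8% were even, so reads may not be independent molecules.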

Additional observations from a re-analysis of the deposited data

How the results depend on the processing

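The CPOX difference kept its direction and its call under all 20 alternatives, and leaving out single libraries gave 0.66 to 0.75. No member was called lower under any alternative except the replicate block. The block called 2 lower (ALAS1 at -0.30, adjusted p = 0.0394, and HMOX1 at -0.40, 0.0398), where 21.8% of all genes tested were called lower. With the block and GC trends removed 2 members were called higher (CPOX, and PPOX at 0.41, 0.0215). The counts over all genes in that fit are given below, and nothing particular to the members is read from these counts. UROS turned positive under common-total scaling (0.044), GC trend removal with or without the block (0.0027) and without both P14 libraries (0.0016). FECH turned negative under TMM scaling (-0.0035), in edgeR (-0.0049) and with GC trends removed with or without the block (-0.037), and without single libraries it ranged from -0.014 to 0.080. Common-total scaling moved the median of all genes by 0.11. Among listed genes BACH1 turned negative with GC trends removed with or without the block (-0.035) and ranged from -0.061 to 0.38 without single libraries. BLVRA turned positive under common-total scaling (0.043) and GC trend removal with or without the block (0.013), and ranged from -0.25 to 0.041 without single libraries. The cause was not tested for any of these.

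Over all genes 2047 were higher and 2191 lower in the unpaired limma fit, 3995 and 3918 with the replicate block, 4108 and 4344 with the block and GC trends removed, 1162 and 1368 without both P14 libraries, and 1318 to 2218 and 1544 to 2204 without single libraries. Of these 2 directions, common-total scaling gave 2683 and 1698. Over all genes edgeR called 10.1% higher and 13.3% lower, and DESeq2 9.5% and 9.89%. Counts called higher and lower in the lists moved as follows. They show how far each count depends on the setting and nothing more. With the block and GC trends removed, other synthesis genes were 2 and 5, breakdown and transport 4 and 2, hemoproteins 2 and 9, NRF2 and BACH1 targets 3 higher, glycine and succinyl-CoA metabolism 1 higher and regulators 3 lower. With the block alone they were 2 and 5, 4 and 2, 4 and 5, 2 higher, 2 higher and 2 lower in that order. Common-total and quantile scaling each gave 2 and 1 for other synthesis genes, 2 higher for breakdown and transport and 1 higher for glycine and succinyl-CoA metabolism, which DESeq2 also gave. GC trend removal gave 1 and 4 for other synthesis genes, 4 higher for breakdown and 2 higher for hemoproteins. Regulators called higher were 3 under TMM scaling, limma without trend, edgeR and without both P14 libraries, and 2 were lower under TMM scaling, edgeR and the filter at 50. Limma without trend left 1 synthesis gene lower, and leaving out both P14 libraries 0, with 0 breakdown genes lower. Without single libraries the counts higher and lower ranged from 0 to 2 and 1 to 2 (other synthesis), 1 to 1 and 0 to 1 (breakdown), 1 to 4 and 1 to 2 (regulators), 1 to 1 and 2 to 4 (hemoproteins), 0 to 1 and 5 to 6 (glycine and succinyl-CoA) and 1 to 1 and 6 to 8 (NRF2 and BACH1 targets). The HMOX1 share differed by -1.73 percentage points with the longest transcript as the length. With 3 libraries a group, the 95% half-width of a difference had a median of 0.50 over all genes on the log2 scale.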
